A study of Mus musculus with 6 samples.

Results

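Across the libraries, 10 genes that mark resident tissue macrophages were followed: Adgre1, Csf1r, Mrc1, Clec10a, Mgl2, Cd163, Lyve1, Timd4, Folr2 and Retnla. They were taken by symbol from a table of 45777 genes, all 10 were found, and all 10 were among the 17820 genes abundant enough to be tested. The RNA came from whole epididymal white adipose tissue, the visceral fat pad beside the epididymis, of C57BL/6 mice fasted for 24 h. Of the 6 libraries, 3 with the label WT came from Pak4 flox/flox mice, whose Pak4 alleles carry loxP sites and for which no Cre is named. The other 3, with the label KO, came from Adipoq-Cre; Pak4 flox/flox mice, in which the adiponectin promoter drives the Cre recombinase in adipocytes, so macrophages and the other cells of the pad are not the targeted cells and keep their own Pak4 in the measured RNA. Both groups share the floxed alleles and the fast. The age of the mice is not known from the labels, and sex is not stated there, though only males have an epididymal pad. The replicate numbers are not stated to be separate mice, so p-values measure only the spread between these libraries.

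Resident macrophages live in fat between adipocytes and along vessels, where they clear dying cells, take up debris, iron and lipid, and depend on signals through the CSF1 receptor for survival. Their surface carries scavenger receptors and sugar-binding lectins rather than the molecules of newly arrived monocytes. Interleukin 4 and 13, acting through the transcription factor STAT6, push macrophages towards a state called alternative activation, of which the secreted protein encoded by Retnla is a classic product. In bulk tissue, more macrophages and more RNA per macrophage cannot be told apart.

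Libraries held 62854465 to 72005658 counts. Pak4 was higher and not lower in libraries with the KO label, with 815, 744 and 675 counts against 339, 337 and 358 in libraries with the WT label, so groups are named here by their labels and library numbers (WT 1 to KO 3) follow those labels. Counts per gene do not show the floxed exons apart from the rest of Pak4. Whether labels were exchanged was not tested, and an exchange would turn every direction given here. The labels give adipocytes as the cell type, while the macrophage genes below were present in every library. Library KO 1 lay between the groups on principal component 1, which held 44.1% of the variance, at -1.85 against -53.5 to -12.3 for libraries with the WT label and 40.9 and 53.5 for KO 2 and KO 3. Values per library are CPM (counts per 1000000 counts after TMM scaling) in the order 1, 2 and 3 of each label, and levels of different genes are compared only in the authors' TPM (transcripts per 1000000, corrected for length). Every fold change is given as log2(KO label / WT label) ± SE from the quasi-likelihood F test of edgeR, whose adjusted p-values are Benjamini-Hochberg values over all tested genes.

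The promoters of 2 members are shown, Mrc1 as a gene with separate groups and Retnla as the most abundant member, whose groups overlapped. Among members with a promoter entry, these windows also held the most motif matches. The sequences are the 250 bases before the RefSeq start in GRCm38.p6, the assembly of mm10, both on the + strand, at chr2:14229164-14229413 for Mrc1 and chr16:48842359-48842608 for Retnla. Capitals mark the core motif of the myeloid factor PU.1 (GAGGAA or its reverse complement TTCCTC), the spaced palindrome read by STAT6 (TTCNNNNGAA) and the MAF half-site (TGCTGAC or GTCAGCA).
Mrc1: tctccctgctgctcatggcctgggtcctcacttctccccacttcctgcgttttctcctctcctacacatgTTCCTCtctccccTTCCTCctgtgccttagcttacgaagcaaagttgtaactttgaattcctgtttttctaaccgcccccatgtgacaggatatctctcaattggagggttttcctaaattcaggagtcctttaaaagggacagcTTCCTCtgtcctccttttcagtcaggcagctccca
Retnla: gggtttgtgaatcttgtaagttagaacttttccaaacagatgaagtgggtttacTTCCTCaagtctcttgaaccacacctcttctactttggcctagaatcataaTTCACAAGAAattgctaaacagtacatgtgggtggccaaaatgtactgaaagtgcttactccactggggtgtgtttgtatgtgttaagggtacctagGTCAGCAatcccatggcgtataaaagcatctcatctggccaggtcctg

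The Mrc1 window held 3 matches to the PU.1 core, starting 180, 167 and 35 bases before the start, and none to the other motifs. The Retnla window held 1 match to the PU.1 core at 196, 1 to the STAT6 palindrome at 145 and 1 to the MAF half-site at 48 bases before the start, with a TATAAA box at 30 on the coding strand. Over 32851 promoter windows of the same length, 23.3% held the PU.1 core, 5.85% the STAT6 palindrome, 3.81% the MAF half-site and 7.59% TATAAA. RefSeq promoters were matched for 6 of the 10 members, which were Mrc1, Mgl2, Cd163, Timd4, Folr2 and Retnla. Of the 4 not shown, Mgl2 held 1 PU.1 core and Timd4 held 1 MAF half-site, while the Cd163 window and both Folr2 windows held none of these letters. Adgre1, Csf1r, Clec10a and Lyve1 had no entry. A match describes the letters of the window and is not a bound site.

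Retnla was by far the most abundant member per length, with a mean of 1864 TPM over the 6 libraries, and it made up 70.9% to 81.2% of the summed TPM of the members. Folr2 followed at 134 TPM, Csf1r at 102 TPM and Clec10a at 94.5 TPM. Mrc1 (63.7 TPM), Lyve1 (61.6 TPM) and Mgl2 (59.9 TPM) formed a middle group, and Cd163 (43.4 TPM) and Adgre1 (35.7 TPM) stood lower. Timd4 was the rarest at 5.94 TPM. In libraries with the WT label the first 4 did not overlap with one another in TPM. Mrc1, Lyve1 and Mgl2 overlapped among themselves, as did Cd163 and Adgre1. In libraries with the KO label, Folr2 (114 to 186 TPM), Csf1r (89.4 to 129 TPM) and Clec10a (95.4 to 132 TPM) overlapped with one another, as did Mrc1, Lyve1 and Mgl2, and the ranges of Lyve1, Mgl2, Cd163 and Adgre1 each met the next.

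**Figure D1:**
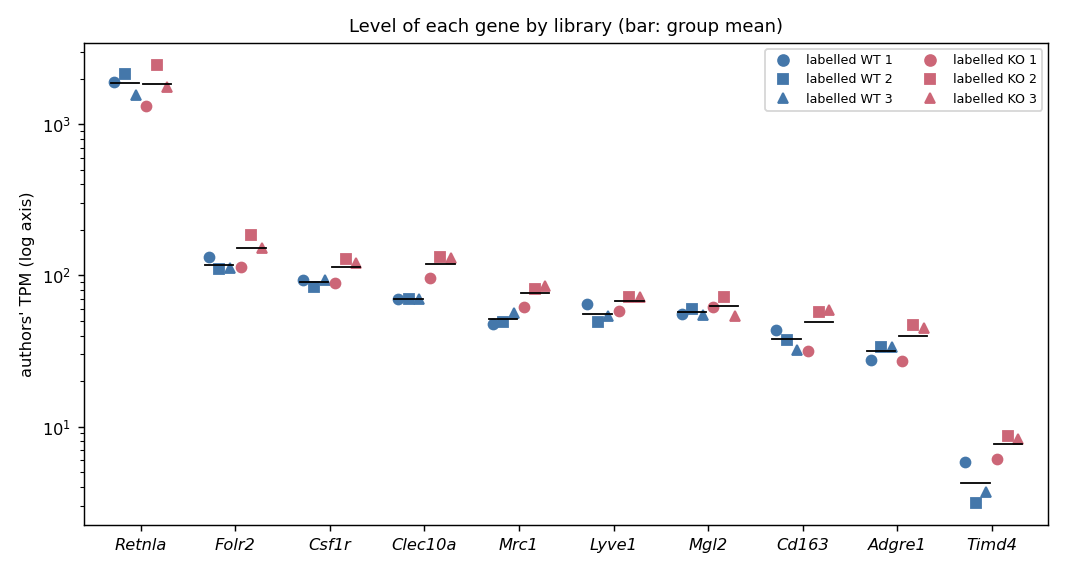
Authors' TPM on a log axis for each member in each of the 6 libraries, with blue for labelled WT and red for labelled KO, the marker shape for the replicate number and a black bar for the group mean. Retnla lies above every other member in all 6 libraries, and Timd4 lies lowest.

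None of the 10 members passed the threshold of 0.05 in edgeR's quasi-likelihood test with adjustment over all genes, in which 0.0168% of all tested genes passed. At an unadjusted p under 0.05, 3 members were higher in libraries with the KO label (Clec10a, Mrc1 and Timd4) and 0 were lower, while 9.66% of all tested genes were higher and 9.71% lower at that level. The groups did not overlap for the same 3 members, all with libraries with the KO label higher, beside 13.7% of all tested genes. The log2 fold change was above 0 for 9 of 10 members, as it was for 52.1% of all genes, and the median was 0.29 for the members and 0.02 for all tested genes. Retnla was the exception.

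Csf1r and Adgre1 stand for the macrophage population as a whole. Csf1r encodes the receptor for CSF1 and interleukin 34, the signal on which macrophages depend, and lies on chromosome 18. It had 199, 185 and 190 CPM in libraries with the WT label and 184, 253 and 249 CPM in those with the KO label. KO 2 and KO 3 were above all libraries with the WT label, while KO 1 was the lowest of the 6. This gave a log2 fold change of 0.26 ± 0.14 (edgeR adjusted p 0.329). Adgre1 encodes F4/80, an adhesion G protein-coupled receptor used to identify mouse macrophages (chromosome 17, 57358581 to 57483529 in mm10). It had 48.7, 61.7 and 57.1 CPM against 46.2, 77.2 and 77.2 CPM, again with KO 1 the lowest and KO 2 and KO 3 the highest. Its log2 fold change was 0.26 ± 0.20 (edgeR adjusted p 0.495). Csf1r overlaps the opposite-strand gene Hmgxb3, and the strand setting of the counting is not known, so its counts may include reads of that gene.

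The C-type lectins bind sugars on glycoproteins and microbes, and 2 of the 3 had separate groups. Clec10a, a lectin for galactose and N-acetylgalactosamine (chromosome 11, 70166623 to 70170836), had 57.5, 59.6 and 54.7 CPM in libraries with the WT label and 76.0, 100.2 and 104 CPM in those with the KO label. The lowest library with the KO label was thus above the highest with the WT label, and libraries with the WT label lay close together (57.3 ± 2.49 CPM, SD, n = 3). The log2 fold change was 0.71 ± 0.13, a 1.63-fold higher level, with an edgeR unadjusted p of 6.43e-04 and an adjusted p of 0.119. Mrc1 encodes the mannose receptor CD206, which takes up mannose-bearing glycoproteins (chromosome 2, 14229414 to 14332023). It had 138, 149 and 158 CPM against 173, 219 and 243 CPM, also without overlap, with the nearest libraries being WT 3 and KO 1. Its log2 fold change was 0.51 ± 0.14 (edgeR unadjusted p 0.00641, adjusted p 0.156).

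Mgl2, the neighbour of Clec10a and its closest relative (chromosome 11, 70130125 to 70137542), had 47.4, 53.6 and 44.7 CPM against 51.3, 57.3 and 45.3 CPM. The libraries of both labels were interleaved, at a log2 fold change of 0.08 ± 0.12 (edgeR adjusted p 0.729). The longest coding transcripts of both genes were 96.7% identical over an aligned 704 bases, with a longest shared run of 183 bases, so reads may have been assigned to either and the split between them is uncertain. Added together, the pair had 105, 113 and 99.4 CPM in libraries with the WT label and 127, 158 and 149.7 CPM in those with the KO label, without overlap (exact permutation test, two-sided, p = 0.1, the smallest that 3 against 3 can give). Clec10a took 52.7% to 55.0% of the pair's counts in libraries with the WT label and 59.7% to 69.8% in those with the KO label.

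Among the receptors for cargo, Timd4 had separate groups and the other 3 did not. Timd4 encodes TIM-4, which binds phosphatidylserine on dying cells and marks long-lived resident macrophages (chromosome 11, 46810786 to 46844333). It had 6.50, 3.75 and 4.04 CPM in libraries with the WT label and 6.87, 8.98 and 8.99 CPM in those with the KO label. WT 1 and KO 1 nearly met, and the other libraries stood well apart. The log2 fold change was 0.80 ± 0.23 (edgeR unadjusted p 0.00935, adjusted p 0.169). With 248 to 670 counts per library it was the least precise member, with an exact binomial 95% interval of up to 12.7% on either side of its share in a library, against at most 3.76% for every other member. Such an interval covers counting error alone and not the spread between libraries. Copies made by PCR count as further reads, so it may be too narrow even for that error.

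Cd163 encodes the scavenger receptor for haemoglobin bound to haptoglobin (chromosome 6, 124304636 to 124330529). It had 105, 94.1 and 74.7 CPM against 74.4, 128 and 139 CPM. KO 1 was the lowest of all 6 libraries and KO 3 the highest. Its log2 fold change was 0.32 ± 0.24 (edgeR adjusted p 0.486). Folr2, a folate receptor of perivascular macrophages (chromosome 7, 101839988 to 101857190), had 78.0, 67.8 and 63.5 CPM against 71.8, 102 and 87.9 CPM. Only KO 1 lay within the range of libraries with the WT label. Its log2 fold change was 0.32 ± 0.14 (edgeR adjusted p 0.265). Folr2 overlaps 2 opposite-strand GENCODE genes, Gm10602 and Gm45319.

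Lyve1 encodes a hyaluronan receptor found on a subset of vessel-associated macrophages and on lymphatic endothelium (chromosome 7, 110850607 to 110862953). It had 92.2, 73.2 and 73.5 CPM against 80.5, 95.1 and 100.1 CPM. WT 1 was close to KO 2 and above KO 1, and the log2 fold change was 0.21 ± 0.13 (edgeR adjusted p 0.397). Lymphatic markers were given beside it because lymphatic endothelium also carries Lyve1 and Mrc1. Prox1, the defining factor of lymphatic endothelium, was near 0 in both groups (0.62 and 0.53 CPM on average). The summed CPM of 6 lymphatic markers was 69.6 to 88.1 with the WT label and 70.1 to 77.6 with the KO label. Most of that sum was Pdpn, at 49.4 and 51.4 CPM on average. Pdpn was also the 1 of 6 with a log2 fold change above 0 (0.06 ± 0.12). Ccl21a had 5.22, 13.9 and 24.9 CPM with the WT label and 12.4 ± 0.52 CPM (SD, n = 3) with the KO label. The sum thus hid a spread among libraries with the WT label, of which WT 1 was lowest for Ccl21a and highest for Lyve1. The part of lymphatic endothelium in the Lyve1 and Mrc1 values was not tested.

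Retnla encodes RELM alpha, a small secreted protein of alternatively activated macrophages (chromosome 16, 48842609 to 48844461). It had 564, 665 and 445 CPM in libraries with the WT label and 383, 684 and 514 CPM in those with the KO label. The highest and the lowest library both carried the KO label, so the groups were fully mixed. The log2 fold change was -0.08 ± 0.23 (edgeR adjusted p 0.872), and its sign turned without WT 2 (0.07), without KO 1 (0.10) or with scaling by library size alone (0.05). Mgl2 was the only other member whose sign turned when a library was left out, at -0.01 without KO 2.

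**Figure D2:**
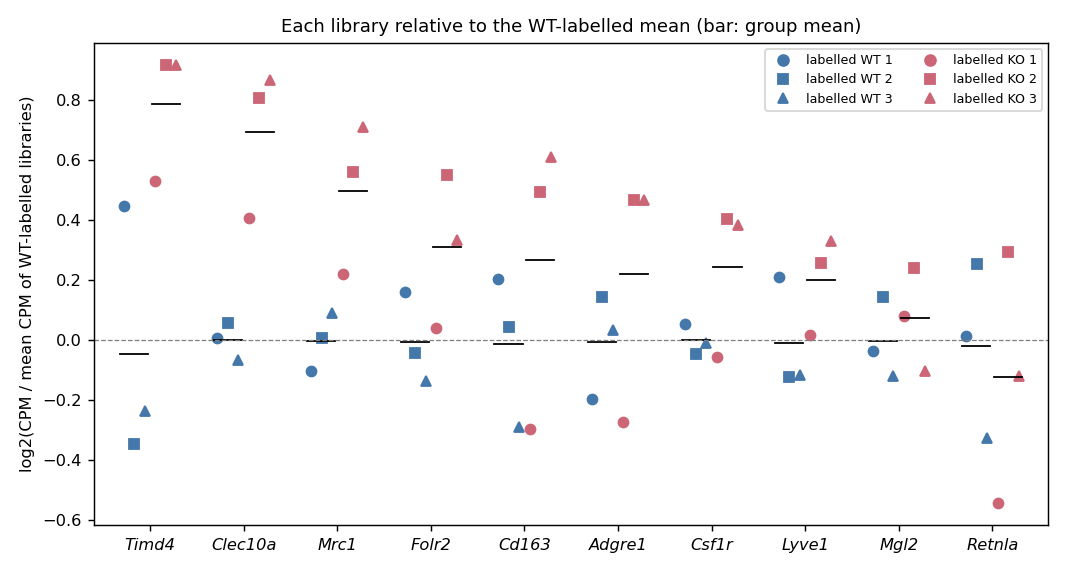
CPM of each member in each library as a log2 ratio to the mean of libraries with the WT label, with blue for labelled WT, red for labelled KO, the marker shape for the replicate number and black bars for group means of the log2 ratios. KO 2 and KO 3 lie above all libraries with the WT label for 8 of 10 members, while KO 1 does so for Timd4, Clec10a and Mrc1.

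For 5 of the 7 members with overlapping groups, KO 1 was the only library with the KO label not above all libraries with the WT label. Of 10 members, KO 2 and KO 3 were both above all libraries with the WT label for 8, beside 25.3% of all tested genes. KO 1 was above them for 3 (Clec10a, Mrc1 and Timd4), within their range for 3 (Mgl2, Lyve1 and Folr2) and below them for 4 (Csf1r, Adgre1, Cd163 and Retnla). It was the lowest of libraries with the KO label for 9 of 10 members, Mgl2 being lowest in KO 3. Setting KO 1 apart, here and in the fits without it, therefore raises the mean of the KO label for those 9 by construction. The members together took 0.115% of all counts in KO 1, 0.184% in KO 2 and 0.165% in KO 3, and 0.114% to 0.132% in libraries with the WT label.

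Without KO 1, Clec10a (log2 fold change 0.84 ± 0.08, adjusted p 0.0232) and Mrc1 (0.64 ± 0.10, adjusted p 0.0309) passed in edgeR's quasi-likelihood test, beside 2.08% of all tested genes that passed as higher. At an unadjusted p under 0.05, 7 members were then higher, beside 13.2% of all genes. These were Adgre1 (0.47), Csf1r (0.39), Cd163 (0.55), Timd4 (0.92) and Folr2 (0.44) in addition to Clec10a and Mrc1. Lyve1 (0.29 ± 0.12) and Mgl2 (0.08 ± 0.13) did not reach it. Without WT 1, 5 members (Clec10a, Mrc1, Timd4, Lyve1 and Folr2) were higher at an unadjusted p under 0.05, beside 8.79% of all genes. With scaling by library size alone 6 were (the same 5 and Csf1r), beside 18.2% of all genes. Leaving out another library gave lower values for some members. Adgre1 was at 0.14 without KO 2 and without KO 3 and at 0.17 without WT 1. Cd163 was at 0.15 without KO 3 and 0.19 without WT 3, and without KO 2 Folr2 was at 0.19 and Csf1r at 0.18. Lyve1 ranged from 0.14 without KO 3 to 0.32 without WT 1. DESeq2 on all 6 libraries called Clec10a (adjusted p 5.19e-04), Mrc1 (0.0250) and Timd4 (0.0301), beside 2.61% of all tested genes called as higher. The adjusted p of Clec10a ran from 5.19e-04 to 0.409 over all 13 alternatives, that of Mrc1 from 0.0250 to 0.425 and that of Timd4 from 0.0301 to 0.432.

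**Figure D3:**
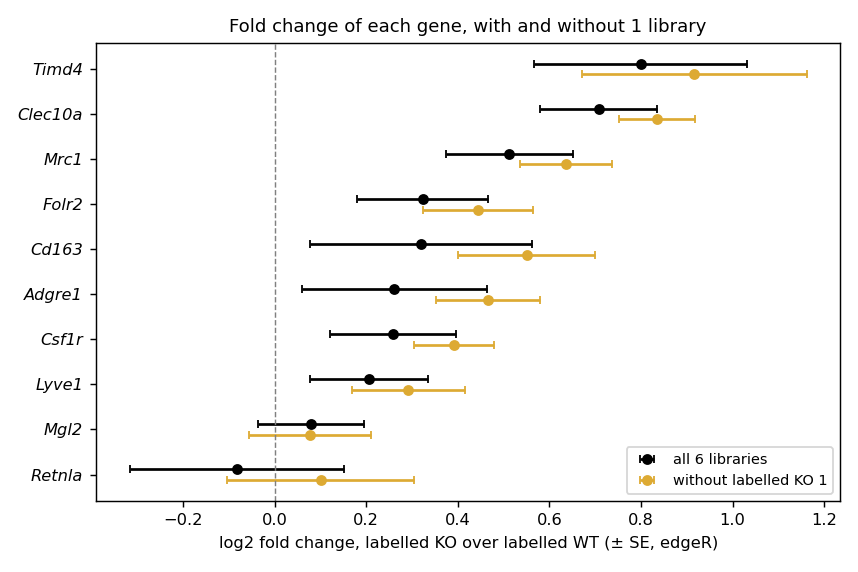
Log2 fold change of each member with its SE from edgeR, with all 6 libraries in black and without library KO 1 in yellow. Leaving out KO 1 moves Cd163 from 0.32 to 0.55 and Adgre1 from 0.26 to 0.47, and leaves Mgl2 at 0.08.

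To ask whether members moved apart from the general macrophage gene of the same library, each was divided by Adgre1. The log2 ratio of Clec10a to Adgre1 was 0.24, -0.05 and -0.06 in libraries with the WT label and 0.72, 0.38 and 0.44 in those with the KO label, without overlap and 0.47 higher on average. The exact permutation test gave the smallest p it can, 0.1 (two-sided), and 0.675 after Benjamini-Hochberg adjustment over the 9 ratios. Clec10a was alone among the 9 ratios in having separate groups. The share of all genes with separate ratios to Adgre1 was not computed, and the split of reads between Clec10a and Mgl2 is uncertain. For Mrc1 the ratio was 1.51, 1.28 and 1.47 against 1.91, 1.51 and 1.66, which nearly separated, with WT 1 and KO 2 at the same level (difference 0.27, exact p 0.2). KO 1, the library with the lowest Adgre1, had the highest ratio for both lectins.

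The ratio of Timd4 was 0.60 higher in libraries with the KO label (exact permutation p 0.3), with WT 1 above KO 2 and KO 3. For Csf1r, Cd163, Lyve1 and Folr2 the mean ratios differed between the labels by 0.02, 0.05, -0.02 and 0.09 on the log2 scale. All were smaller than the SD within either group. These SDs reached 0.37, for Cd163 in libraries with the WT label, so small differences could not be resolved. Mgl2 (-0.15) and Retnla (-0.33) had lower ratios in libraries with the KO label with overlapping groups (exact permutation p 0.6 and 0.3). Divided instead by the summed CPM of 12 general macrophage genes, a choice made after seeing the data, the difference was 0.46 for Clec10a, 0.27 for Mrc1 and -0.33 for Retnla. Lyz2 made up most of that sum, at 791 and 913 CPM on average within sums of 1091 to 1488 and 1113 to 1664 CPM.

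**Figure D4:**
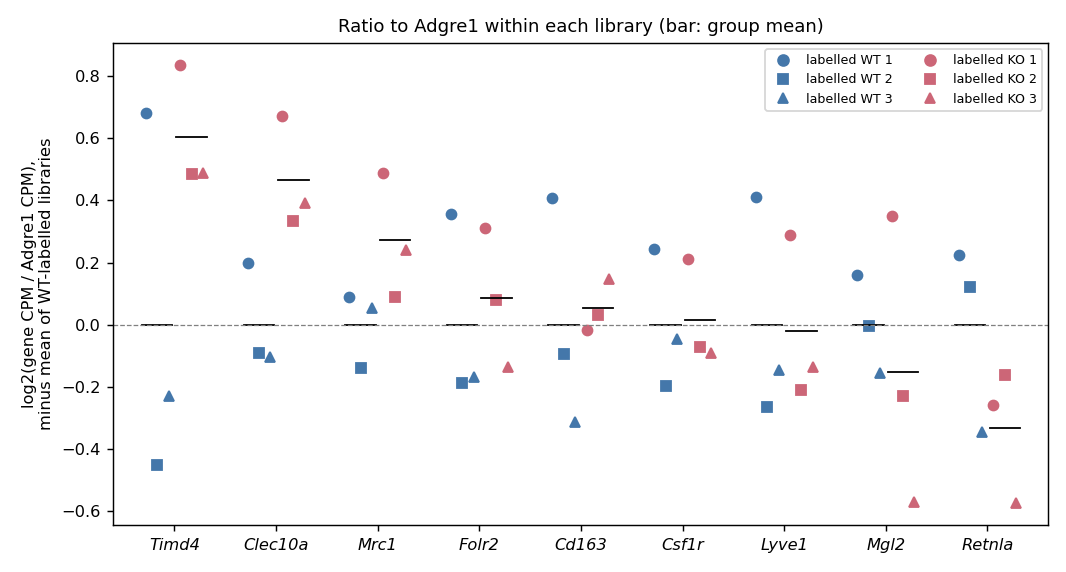
Log2 ratio of each member's CPM to that of Adgre1 in the same library, minus the mean of libraries with the WT label, with blue for labelled WT, red for labelled KO, the marker shape for the replicate number and black bars for group means. Clec10a separates the groups, and Csf1r, Cd163, Lyve1 and Folr2 have group means within 0.09 of each other.

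Other genes of resident macrophages lay above 0 in 12 of 16 cases. All 16 were tested, 0 passed over all genes in edgeR, 8 were higher and 1 lower at an unadjusted p under 0.05 (9.66% and 9.71% of all genes), and the groups were separate for 6 with libraries with the KO label higher (13.7% of all genes) and for 1 with them lower (12.5%). The median log2 fold change was 0.27. Pf4, a chemokine of platelets and macrophages, had 48.5 ± 1.28 and 63.2 ± 3.98 CPM (SD, n = 3 each; log2 fold change 0.38 ± 0.08, edgeR adjusted p 0.133). Ccl24, a chemokine that attracts eosinophils, had 8.84 ± 2.18 and 15.3 ± 2.93 CPM (0.79 ± 0.21). Gas6, a bridging protein between dying cells and phagocytes, was at 291 ± 59.2 and 435 ± 87.0 CPM with overlapping groups (0.58 ± 0.20). The source of Gas6 among the cells of the pad was not tested. Ltc4s, a leukotriene synthase, was the member of that list with separate groups in the other direction (-0.43 ± 0.17). Its groups nearly met in CPM, with KO 1 at 77.4 and WT 2 at 78.8. In TPM they overlapped, with KO 1 at 222 within the 211 to 241 of libraries with the WT label. DESeq2 called Pf4 (adjusted p 0.00792) and Ccl24 (0.0169), and without KO 1 Ccl24 (0.94, edgeR adjusted p 0.0466) and Ltc4s (-0.67, 0.0240) passed.

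General macrophage genes had a median of 0.30, with 4 of 12 higher and 0 lower at an unadjusted p under 0.05 (9.66% and 9.71% of all genes). The groups were separate for 1 with libraries with the KO label higher (13.7% of all genes). Cd68, a lysosomal protein, was at 76.4 ± 9.38 and 95.02 ± 7.99 CPM without overlap (0.31 ± 0.12), Cd14, a receptor for bacterial lipopolysaccharide, at 20.7 ± 4.27 and 30.8 ± 5.94 CPM (0.57 ± 0.19), and Lyz2, which encodes lysozyme, at 791 ± 179 and 913 ± 213 CPM (0.21 ± 0.22, from 0.07 without KO 3 to 0.41 without WT 2). The adjusted p of these 3 genes in edgeR was 0.191 or more. Among 9 monocyte genes the median was -0.02. At an unadjusted p under 0.05, where 9.66% of all genes were higher and 9.71% lower, 1 monocyte gene was higher and 1 lower. These were Plac8 (0.61 ± 0.17) and Ms4a4c (-0.71 ± 0.26), while Ace, the most abundant in TPM, stood at 0.20 ± 0.12, and at 0.099 without KO 3. DESeq2 called Plac8 (adjusted p 0.0435). The source of Ace among the cells of the pad was not tested.

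Among genes of lipid-associated macrophages, which take up lipid from dying adipocytes, the median was 0.66. Of these 11 genes, 4 were higher and 1 was lower at an unadjusted p under 0.05 (9.66% and 9.71% of all genes). Msr1, a scavenger receptor, stood at 0.66 ± 0.10 and Trem2, a lipid receptor, at 1.01 ± 0.24, and the most abundant, the lysosomal protease gene Ctsd, at -0.62 ± 0.19. Ctsd had a mean of 2178 TPM over the 6 libraries against 35.9 TPM for Trem2, and its source among the cells of the pad was not tested. None of the 11 passed in edgeR with all 6 libraries. Without KO 1, Msr1 (0.74, adjusted p 0.0240) and Trem2 (1.23, adjusted p 0.0245) passed in edgeR, and DESeq2 called Msr1 (6.67e-05), Trem2 (0.00298) and, as lower, Ctsd (0.0193), beside 3.86% of all genes called as lower.

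Genes of the ligand and transcription factor level had a median of 0.03, with 2 of 10 higher at an unadjusted p under 0.05 (9.66% of all genes). The groups were separate for 3 with libraries with the KO label higher (13.7% of all genes). Csf1, the ligand of the CSF1 receptor, was at 46.4 ± 2.88 and 59.8 ± 2.86 CPM (SD, n = 3 each), without overlap, and a log2 fold change of 0.37 ± 0.09 (edgeR adjusted p 0.144). The transcription factor gene Maf, which supports the resident macrophage programme, was at 50.6 ± 3.55 and 75.3 ± 12.98 CPM, also without overlap (0.57 ± 0.13, edgeR adjusted p 0.144), and passed without KO 1 (0.69, adjusted p 0.0296). DESeq2 called Maf (adjusted p 0.0122) and Csf1 (0.0183). Zeb2, the most abundant of that list in TPM, stood at 0.04 ± 0.14, and its sign turned without WT 3 (-0.04) or KO 2 (-0.09).

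Genes of alternative activation lay above 0 in 3 of 10 cases. Of 10 tested genes, 4 were lower and 1 was higher at an unadjusted p under 0.05 (9.71% and 9.66% of all genes), and the median was -0.33. The higher one was Arg1, an arginase and classic product of alternative activation, at 0.80, 1.81 and 1.11 CPM against 1.26, 2.78 and 6.68 CPM. Its log2 fold change was 1.53 (edgeR adjusted p 0.243), and 0.71 without KO 3, the library far above the rest. Il10, an anti-inflammatory cytokine with at most 39 counts in a library, stood at 1.91 (edgeR adjusted p 0.294). Stat6, through which interleukin 4 and 13 signal, was at 127 ± 23.1 and 91.1 ± 15.5 CPM with overlapping groups (-0.48 ± 0.17). Irf4, a factor of alternative activation that adipocytes also express in fasting, was at 121 ± 82.0 and 48.9 ± 12.6 CPM (-1.31 ± 0.48), with WT 1 far above the rest, and at -0.62 without that library. Tgm2, a transglutaminase and the most abundant in TPM, stood at -0.14 ± 0.13, from -0.24 without WT 1 to -0.068 without WT 2. The edgeR adjusted p of Stat6, Irf4 and Tgm2 was 0.202 or more. Many of these genes are also expressed outside macrophages, and their source was not tested.

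Upstream type 2 cytokines were barely seen. Il4, Il5, Il13 and the eosinophil gene Epx were too low to be tested. Of the 6 tested genes of type 2 sources 1 was higher at an unadjusted p under 0.05, beside 9.66% of all genes. This was Gata3, at 0.42 ± 0.05 and 0.81 ± 0.06 CPM (log2 fold change 0.96 ± 0.27). Il33, an alarm cytokine of stromal cells, was at 14.7 ± 3.16 and 24.1 ± 9.31 CPM with overlapping groups (0.71 ± 0.30, and 0.40 without KO 3). Of 9 tested genes of inflammatory activation, 2 were higher and 0 lower at that level (9.66% and 9.71% of all genes), and the median was 0.07. Cd86, a costimulatory ligand, was at 8.15 ± 0.84 and 11.4 ± 1.14 CPM (0.48 ± 0.13), and Ccl3, a chemokine, was at 0.21 ± 0.11 and 0.70 ± 0.18 CPM (1.71 ± 0.47). None of these genes passed over all genes in edgeR with all 6 libraries, while DESeq2 called Cd86 (adjusted p 0.0401) and Ccl3 (0.0348).

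**Figure D5:**
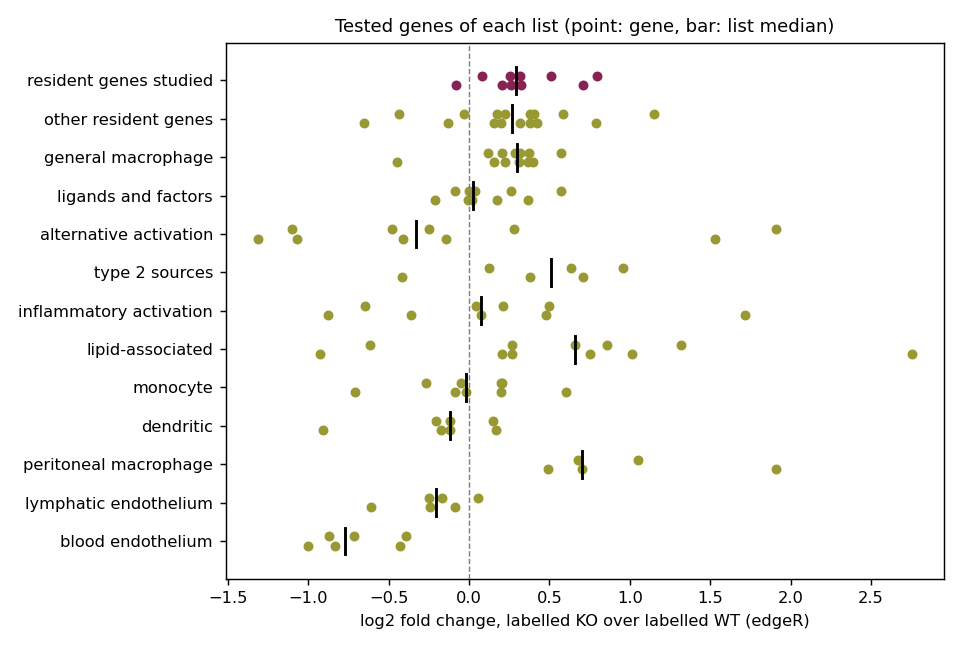
Log2 fold change of every tested gene of the member list and of 12 other lists, with a black bar at each list's median. The members (purple) have a median of 0.29, close to the other resident genes (0.27) and general macrophage genes (0.30), while alternative activation lies at -0.33 and blood endothelium at -0.77.

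Markers of other cell types are given as counts and summed levels, and none of those tested passed over all genes in edgeR. Dendritic cells can carry Clec10a and Mgl2, and 2 of 7 dendritic markers lay above 0 (median -0.12), with summed CPM of 28.6 to 32.5 in libraries with the WT label and 28.6 to 30.9 in those with the KO label. Their defining gene Flt3 was at 0.93 and 0.82 CPM on average. The part of dendritic cells in the Clec10a and Mgl2 values was not tested. Peritoneal macrophages can carry Timd4, and all 5 of their markers lay above 0 (median 0.70), with summed CPM of 61.8 to 105 and 96.4 to 196. Gata6, their defining factor, is also a gene of mesothelium, the sheet that covers the pad. All 6 mesothelial markers lay above 0 (median 0.53), with summed CPM of 468 to 760 and 739 to 920. The part of peritoneal macrophages and of the pad's surface in the Timd4 value was not tested.

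All 6 blood endothelial markers lay below 0 (median -0.77), with summed CPM of 193 to 261 in libraries with the WT label and 145 to 162 in those with the KO label. Of 6 progenitor and fibroblast markers, 3 lay above 0, with summed CPM of 2255 to 2362 and 2271 to 3362, and KO 1 was again within the range of libraries with the WT label. Mature adipocyte markers summed to 43907 to 51296 and 48210 to 51535 CPM, with 2 of 10 above 0 (median -0.22). That sum joins opposite moves. Cfd was higher, at 7707 and 15671 CPM on average (log2 fold change 1.02 ± 0.32). Pnpla2 was lower, at 3969 and 2839 CPM (-0.48 ± 0.14), and both had separate groups. All 5 mast cell markers and all 5 B and plasma cell markers lay above 0 (median 0.87 and 1.02), 3 of 4 tested neutrophil markers did (0.77), 3 of 6 T and NK markers did, and 0 of 5 erythroid markers did (-0.38). Their summed CPM in libraries with the WT label and KO was 33.0 to 62.1 and 59.3 to 116 for mast cells, 8.48 to 19.4 and 23.5 to 36.3 for B and plasma cells, 15.4 to 18.8 and 22.6 to 30.9 for neutrophils, and 5.22 to 7.22 and 4.92 to 9.34 for T and NK cells. Most of the neutrophil sum was Mmp9, at 9.38 and 18.7 CPM on average. S100a8 went the other way with separate groups, at 4.01 and 1.32 CPM (log2 fold change -1.60 ± 0.40). Erythroid markers summed to 5546 to 6190 and 3751 to 5899 CPM. Epididymal markers were at 0 in all libraries except one labelled KO, at 0.24 CPM in sum. The part of these cells in the member values was not tested.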

How the data were processed

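Per the labels' protocols, RNA of tissue stored in RNAlater was isolated with Trizol and made into libraries with a stranded mRNA kit. The build was mm10 and the tools included StringTie 2.1.3b, Bowtie2 2.3.4.1 and HISAT2 2.1.0, listed without roles in the submitters' processing notes; strand setting and treatment of reads with several matches are not given in the sources used here. The authors deposited unnormalized read counts per gene, which entered every test. The deposited TPM values, scaled by the authors per transcript length, served for levels between genes and for 1 alternative. The deposited FPKM values, per kilobase and per 1000000 fragments, were not used here.

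Low genes were removed by filterByExpr (minimum count 10, minimum total 15). With TMM scaling, edgeR 4.0.16 in R 4.3.3 fitted a robust quasi-likelihood model on the label alone. Tests were two-sided, and the threshold was an adjusted p (Benjamini-Hochberg) of 0.05. SE is the fold change over the square root of F. DESeq2 1.42.0 and limma 3.58.1 (voom, and a trend fit on log2(TPM + 0.1)) were alternatives, and scripts were tested on simulated data. No pair of libraries agreed within sampling noise (chi-square of the counts per degree of freedom at least 49.9). Coordinates are those of RefSeq GRCm38.p6, overlaps those of GENCODE M21. The members and lists were chosen with earlier results of these data known. Named genes are the members, Pak4 and, from each of 8 macrophage lists, the 2 tested genes with the smallest p and the most abundant in CPM. Arg1, Il10, Ltc4s, Flt3, Prox1, Pdpn, Ccl21a, Gata6, Cfd, Pnpla2, Mmp9, S100a8 and the untested type 2 genes were named after their values were seen.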

Additional observations from a re-analysis of the deposited data

How the results depend on the processing

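Replicate numbers did not pair the libraries: deviations of same-numbered libraries from their group means correlated at -0.17, -0.02 and 0.05, and with the replicate block 1 gene passed over all genes in place of 3, with 0 members in both fits. The number of genes past the threshold was 1152 with DESeq2, 5 with limma voom and 6 with limma on log2(TPM + 0.1), and 1 to 1016 with 1 library left out, the highest without KO 1. Members past it numbered 3 with DESeq2 and 0 to 2 with 1 library left out. The median of all genes moved by 0.12 when only library size was used for scaling, which brought the members higher at an unadjusted p under 0.05 to 6, beside 18.2% of all genes; with 1 library left out they numbered 3 to 7, at 5 without WT 1 (beside 8.79% of all genes), and 0 were lower under any alternative. Pak4 passed with DESeq2 (log2 fold change 0.95) and without KO 1, and ranged from 0.85 to 1.06 with 1 library left out. With 1 library left out, signs turned for Retnla (-0.32 to 0.10, and 0.049 when scaled by library size), Mgl2 (-0.0098 to 0.16) and Zeb2 (-0.086 to 0.14), and for the ratios to Adgre1 of Csf1r (-0.083 to 0.14), Mgl2 (-0.40 to 0.059), Cd163 (-0.10 to 0.26), Lyve1 (-0.17 to 0.19) and Folr2 (-0.027 to 0.26). The cause was not tested. No sign of the other 8 members turned under any alternative.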
